A study of Mus musculus with 2 samples.

Results

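The CC chemokine cluster on mouse chromosome 11 was described through 9 genes, Ccl2, Ccl7, Ccl12, Ccl8, Ccl5, Ccl9, Ccl6, Ccl3 and Ccl4. They were listed by symbol, under a rule that uses no measured value, and all 9 were found among the 55536 annotated genes of the deposited tables. RNA of the chromatin fraction, that is RNA still attached to or near its template, was depleted of ribosomal RNA and sequenced from primary macrophages grown from the bone marrow of C57BL/6J mice (bone-marrow-derived macrophages, BMDM). The cells had no stated genetic change. They were exposed to lipid A, the part of bacterial lipopolysaccharide that Toll-like receptor 4 senses, at 100 ng/ml for 12 h, then kept for 12 h after washout, then given 100 ng/ml lipid A for 75 min. Biological replicates 1 and 2 made up the only group, from 250 and 500 ng of RNA. Cells without lipid A or with a single exposure were not analysed here, and each value is therefore a level after repeated exposure, not a response. The labels give the same donor entry to both libraries and do not spell out separate cultures, so the spread between them may be technical in part.

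CC chemokines are small secreted proteins with a pair of adjacent cysteines near the start of the mature chain, and they attract leukocytes through G protein-coupled receptors. Macrophages are a major source of them after Toll-like receptor signals, which act through NF-kB and interferon-regulated factors on many chemokine promoters. Ccl2, Ccl7 and Ccl12 act mainly on Ccr2 and draw monocytes, whereas mouse Ccl8 acts on Ccr8. Ccl3, Ccl4 and Ccl5 draw T cells and monocytes, and Ccl3 and Ccl5 act on Ccr1. Ccl6 and Ccl9 are rodent genes whose products also act on Ccr1.

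The members lie in a pair of groups on build mm10. The Ccl2 side, chr11:82035571-82116799, spans 81.2 kb and holds Ccl2, Ccl7, Ccl12 and Ccl8 in this order, all on the plus strand. The Ccl5 side, chr11:83525778-83664683, spans 138.9 kb and holds Ccl5, Ccl9, Ccl6 and Ccl3 on the minus strand, then Ccl4 on the plus strand. The gap between the sides measured 1409 kb.

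The coding sequences of these genes are related, and how far they differ bears on whether short reads can be assigned to each of them. Every member carried exactly 1 pair of adjacent cysteine codons in its coding frame. The 2 neighbouring pairs with the highest coding identity, with gaps counted as differences, are shown around that codon pair, which is in capitals. The Ccl3 stretch is chr11:83648631-83648678 on the minus strand in exon 2, the Ccl4 stretch chr11:83663461-83663508 on the plus strand in exon 2, and the Ccl6 stretch chr11:83589365-83589412 on the minus strand in exon 3. The Ccl9 stretch crosses the junction of exons 2 and 3 on the minus strand, so its ends, chr11:83575905-83576375, lie 471 genomic bases apart. Sequences run 5′ to 3′ along the transcript and come from the GENCODE M21 transcripts of build mm10.
Ccl3: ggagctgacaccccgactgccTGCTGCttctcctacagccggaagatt
Ccl4: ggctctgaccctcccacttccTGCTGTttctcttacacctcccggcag
Ccl9: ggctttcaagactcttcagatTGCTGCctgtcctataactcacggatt
Ccl6: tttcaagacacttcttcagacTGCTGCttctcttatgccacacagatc

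Over the whole coding sequence, Ccl3 and Ccl4 were identical at 68.1% of alignment columns, gap columns included, the highest of the 36 pairs of members. Ccl9 and Ccl6 followed at 64.8%, with a longest shared run of 23 bases, and Ccl7 and Ccl8 at 64.7%. Identity was lowest between Ccl2 and Ccl5, at 38.5%. Pairs on the same side had a median identity of 50.1% (16 pairs) and pairs from different sides 49.4% (20 pairs), so the medians were close. However, every pair above 56.8%, the highest identity between sides, lay within a side. No stretch of 31 bases was shared between transcripts of different members. The deposited posterior SD of the count, which the authors' program gives for uncertain read assignment, was 0 for each member in both libraries. Stretches shared with genes outside the cluster were most frequent in Ccl9-201, the coding isoform of Ccl9, of which 120 of 2976 (4.03%) also occurred in transcripts of 1918 other genes. They numbered 18 of 1410 in Ccl6-201, 5 of 638 in Ccl5-202 and 0 in each other isoform of the members.

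Promoter sequence was in the RefSeq table (build GRCm38.p6) for 5 members, Ccl12, Ccl8, Ccl9, Ccl6 and Ccl3. Windows from 250 bases before to 50 after the start were searched on both strands for a loose NF-kB pattern (GGG, any 5 bases, then CC), the NF-kB consensus decamer, an interferon-response pattern (GAAA, any 2 bases, then GAAA), an AP-1 pattern (TGA, any base, then TCA) and the core promoter element TATAAA. Every match of the NF-kB consensus is also a match of the loose pattern. Of the 32851 windows in the table, 50.8% held the loose NF-kB pattern, 0.155% its consensus, 3.44% the interferon-response pattern, 7.81% the AP-1 pattern and 13.6% TATAAA. Ccl12 and Ccl8, neighbours with very different levels below, each held TATAAA at nearly the same place, 31 and 32 bases before the start. Ccl9 held the loose NF-kB pattern on the reverse strand from 35 bases before the start, the AP-1 pattern from 53 bases before it, and 3 matches of TATAAA, of which 2 overlapped. The windows of Ccl6 and Ccl3 held none of these patterns. The 100 bases directly before the start are shown for the members with a match, with the matches in capitals, and leave out the TATAAA of Ccl9 that lies 224 bases before the start. They are chr11:82101745-82101844 (plus strand) for Ccl12, chr11:82115085-82115184 (plus strand) for Ccl8 and chr11:83578637-83578736 (minus strand) for Ccl9.
Ccl12: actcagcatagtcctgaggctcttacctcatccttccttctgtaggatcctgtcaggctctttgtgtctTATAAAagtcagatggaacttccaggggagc
Ccl8: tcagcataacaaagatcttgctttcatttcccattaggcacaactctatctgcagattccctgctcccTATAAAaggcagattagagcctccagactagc
Ccl9: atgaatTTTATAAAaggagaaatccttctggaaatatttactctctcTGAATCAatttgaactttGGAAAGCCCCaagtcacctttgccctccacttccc

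The libraries held 18445009 and 17686824 expected counts, the deposited gene-level read estimates of an alignment-based program. Levels are given as TPM, a scaled share of the library's transcripts that is corrected for transcript length, so that genes can be compared. All 8 macrophage markers reached 1 TPM in both libraries, from Fcgr1 at 16.9 and 12.9 TPM to Adgre1 at 497 and 193 TPM. Summed levels of the marker lists of NK cells, B cells, neutrophils, mast cells, dendritic cells and fibroblasts were at most 1.85 TPM in either library. The 6 T cell markers summed to 2.42 and 1.26 TPM, nearly all of it Cd4, while Cd3e, Cd3g and Trac were at 0 counts. In a second, alignment-free table the same markers summed to 21.2 and 25.3 TPM, of which Cd3d held 15.5 and 20.1 TPM. The other lists apart from macrophages were also higher there, with sums of up to 5.23 TPM (neutrophil list, replicate 2). In bulk RNA such as this, fewer producing cells and less RNA per cell cannot be told apart.

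Ccl5, which attracts T cells and monocytes, was the most abundant member at 738 and 925 TPM in replicates 1 and 2 (mean 832 ± 133, SD, n = 2). By mean level it ranked 17 among 22028 protein-coding genes. Its 4624 and 5613 expected counts were also the most of any member. Ccl5 alone made up 62.2% and 51.2% of the 9 members' summed TPM, which was 1186 in replicate 1 and 1808 in replicate 2. Most of this level lay on an isoform that keeps part of an intron. On the coding isoform alone Ccl5 had 243 and 255 TPM, and Ccl4, at 161 and 267 TPM, lay below it in replicate 1 and above it in replicate 2.

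Ccl4 and Ccl3, the macrophage inflammatory proteins, followed. Ccl4 reached 161 and 267 TPM (214 ± 75.0) from 1110 and 1741 counts. Ccl3 reached 102 and 180.2 TPM (141 ± 55.4) from 886 and 1469 counts. Ccl4 was above Ccl3 in each library, by 1.58-fold and 1.48-fold, although the ranges of the genes over the libraries overlapped.

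The monocyte attractants Ccl7 and Ccl2 came next. Ccl7 had 76.6 and 187 TPM (132 ± 78.2) from 713 and 1628 counts, and Ccl2 had 54.5 and 149.6 TPM (102 ± 67.2) from 659 and 1653 counts. Replicate 2 was high for each of them, and Ccl7 lay above Ccl2 in both libraries, by 1.41-fold and 1.25-fold. Ccl12, the other ligand of Ccr2 on this side, was far lower at 9.58 and 10.6 TPM (10.1 ± 0.714), from 46 and 49 counts. Ccl8 was the lowest member, with 1.14 and 2.13 TPM from 5 and 9 counts. At that depth its counts carry 95% Poisson intervals of 1.62 to 11.7 and 4.12 to 17.1, so a difference between the libraries was not detectable for Ccl8. Such intervals cover counting error only.

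The rodent genes Ccl9 and Ccl6 stood apart from each other. Ccl9 had 37.2 and 77.0 TPM (57.1 ± 28.1) from 1756 and 3126 counts, which is more counts than Ccl4 had at a lower level per length, on a coding transcript of 3006 bases against 660. Ccl6 had 5.93 and 8.24 TPM (7.09 ± 1.63) from 73 and 92 counts. Ccl9 was above Ccl6 by 6.28-fold and 9.35-fold, and the ranges did not overlap. Of the 9 members, 9 reached 1 TPM in both libraries, and Ccl6 and Ccl8 alone lay below the median of the 8829 protein-coding genes that did so, which was 9.51 TPM in replicate 1 and 9.14 TPM in replicate 2.

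**Figure D1:**
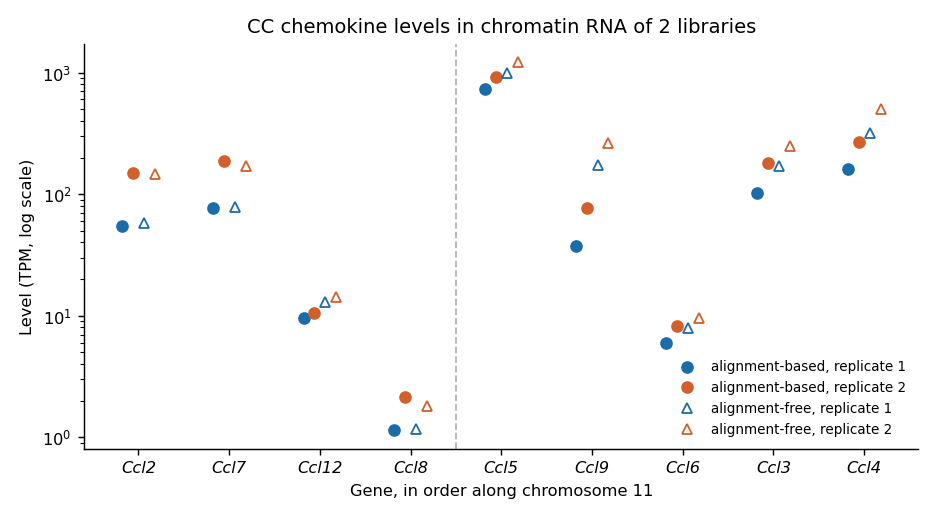
Level of each member in TPM on a log axis, in gene order along the chromosome, with the Ccl2 side to the left of the dashed line and the Ccl5 side to the right. Filled circles are the alignment-based and open triangles the alignment-free program, blue for replicate 1 and orange for replicate 2; Ccl5 is highest at 738 and 925 TPM and Ccl8 lowest at 1.14 and 2.13 TPM (circles).

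By mean TPM the order was Ccl5, Ccl4, Ccl3, Ccl7, Ccl2, Ccl9, Ccl12, Ccl6 and Ccl8. The ranges over the libraries overlapped between Ccl4 and Ccl3, Ccl3 and Ccl7, Ccl7 and Ccl2, and Ccl2 and Ccl9, so the levels of these neighbours were not separated over the libraries. Within each library, however, Ccl4 was above Ccl3, Ccl7 above Ccl2 and Ccl2 above Ccl9 (1.46-fold and 1.94-fold). Ccl3 and Ccl7 exchanged places, with Ccl3 1.33-fold of Ccl7 in replicate 1 and 0.962-fold in replicate 2. The ranges were separate between Ccl5 and Ccl4 (4.58-fold and 3.46-fold within a library), Ccl9 and Ccl12 (3.89-fold and 7.27-fold), Ccl12 and Ccl6 (1.62-fold and 1.29-fold), and Ccl6 and Ccl8 (5.20-fold and 3.87-fold). On coding isoforms alone the ranges of Ccl5 (243 and 255 TPM) and Ccl4 (161 and 267 TPM) overlapped, and the order turned in replicate 2.

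Close neighbouring members were then compared within each side, as 4 chosen pairs. Ccl2 and Ccl7, 8258 bases apart, and Ccl3 and Ccl4, 13228 bases apart on opposite strands, differed by at most 1.58-fold within a library. Ccl12 and Ccl8 lie 11784 bases apart on the same strand, and Ccl12 was 8.40-fold and 4.97-fold of Ccl8. Ccl9 and Ccl6 lie 9245 bases apart on the same strand and have the second highest coding identity by the measure above. They had the largest fold in replicate 2 of these 4 pairs. Among these 4 close pairs, distance and strand did not order the differences. The other neighbouring members lie further apart and were not compared as pairs. Their levels differed widely, with Ccl7 at 76.6 and 187 TPM against Ccl12 at 9.58 and 10.6. Ccl5 had 738 and 925 TPM against 37.2 and 77.0 for Ccl9, and Ccl3 102 and 180.2 against 5.93 and 8.24 for Ccl6. A relation of distance to level over all neighbours was not tested.

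**Figure D2:**
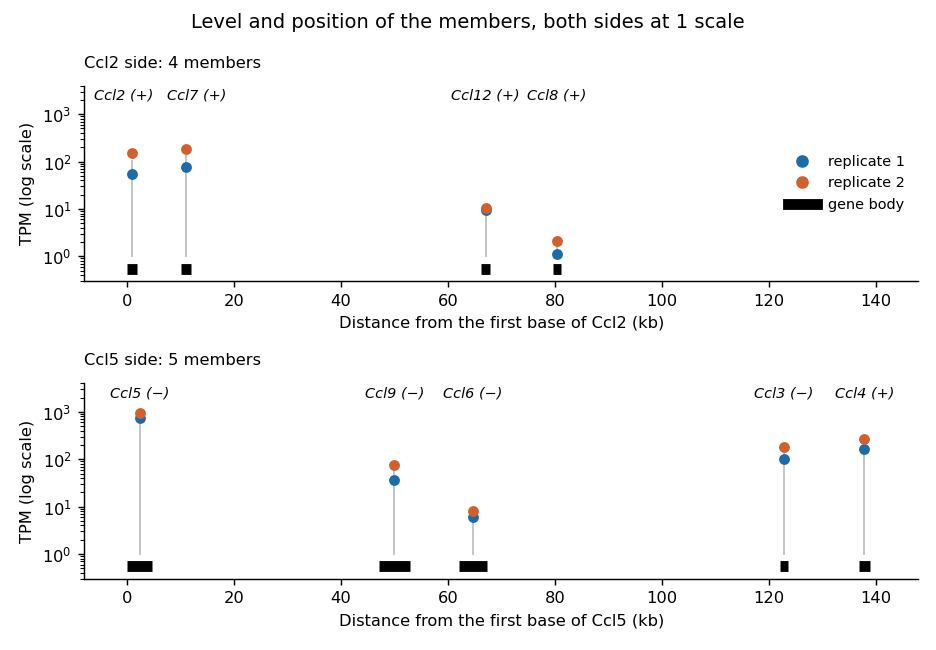
Level of each member in TPM (log axis) against its distance in kb from the first base of Ccl2 (top) or Ccl5 (bottom), at 1 horizontal scale. Black bars are gene bodies, signs give the strand, blue and orange points are replicates 1 and 2, and grey lines rise to the mean; Ccl2 and Ccl7 sit together well above Ccl12 and Ccl8, and Ccl9 well above Ccl6.

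Between the sides, the median level was 32.1 and 80.1 TPM over the 4 members of the Ccl2 side and 102 and 180.2 TPM over the 5 members of the Ccl5 side. On log2(TPM + 0.1) the Ccl5 side was higher by 1.66 in replicate 1 and 1.17 in replicate 2 (1.42 ± 0.35, SD, n = 2). The direction was the same in both libraries, but a paired exact permutation test of 2 libraries, 2-sided, cannot go below p = 0.5. Each side held high and low members, from 1.14 to 187 TPM on the Ccl2 side and from 5.93 to 925 TPM on the Ccl5 side, so the levels of the sides overlapped widely. Summed over members, the Ccl2 side made up 12.0% of the cluster's TPM in replicate 1 and 19.3% in replicate 2.

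The libraries differed in how much of the cluster they held. The 9 members took 9872 expected counts in replicate 1 and 15380 in replicate 2, or 0.457% and 0.646% of the TPM of protein-coding genes. With library sizes scaled by TMM, the log2 ratio of replicate 2 over replicate 1 was 1.46 for Ccl2 (95% exact binomial interval of the counts 1.33 to 1.59) and 1.32 for Ccl7 (1.20 to 1.45). These 2 were the members past 2-fold among the 8 with at least 10 counts in each library. Over all genes tested, 4.09% (542 of 13247) were 2-fold or more higher in replicate 2. Only 1.17% of all genes tested had a larger ratio than Ccl2 and 1.78% a larger one than Ccl7.

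On the Ccl5 side none of the 5 members passed 2-fold. Ccl9 had a ratio of 0.97 (0.88 to 1.05), Ccl3 0.86 (0.74 to 0.98) and Ccl4 0.78 (0.67 to 0.89). Ccl6 at 0.47 (0.0078 to 0.93) and Ccl5 at 0.41 (0.36 to 0.47) were lower. On the Ccl2 side Ccl12, at 0.22 (−0.39 to 0.84), differed between the libraries by less than its counting interval. Ccl8, with under 10 counts, had 0.98 (−0.75 to 2.91).

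The ratio was above 0 in 8 of 8 members tested, against 50.3% of all genes tested. The members' median was 0.82, that of the Ccl2 side 1.32 (3 members) and that of the Ccl5 side 0.78 (5 members). All genes tested had a median of 0.0035 and quartiles of −0.33 and 0.31. Between neighbours, the ratios differed by 0.14 (Ccl2 and Ccl7), 0.08 (Ccl3 and Ccl4), 0.50 (Ccl9 and Ccl6) and 0.76 (Ccl12 and Ccl8, the latter with under 10 counts). The counting intervals overlapped within each of these pairs, so a link between like levels and like ratios was not shown. These ratios compare 2 libraries and not conditions, and there was 1 library on each side.

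Other measures moved with the same pair of libraries. The starting RNA was 250 ng in replicate 1 and 500 ng in replicate 2, which cannot be told apart from any other difference between them. The macrophage markers, 8 of 8 detected, summed to 978 TPM in replicate 1 and 524 TPM in replicate 2, and 7 of 8 were lower in replicate 2 (median log2 ratio −0.89). The highest marker, Adgre1, had a ratio of −1.28 and the lowest, Fcgr1, one of −1.04. Of the 8, 3 were 2-fold or more lower, a share that was not computed over all genes. Mertk (−0.060), Spi1 (−0.064) and Cd68 (0.085) lay between the quartiles of all genes tested. The part of the RNA amount or of the marker levels in the chemokine ratios was not tested.

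**Figure D3:**
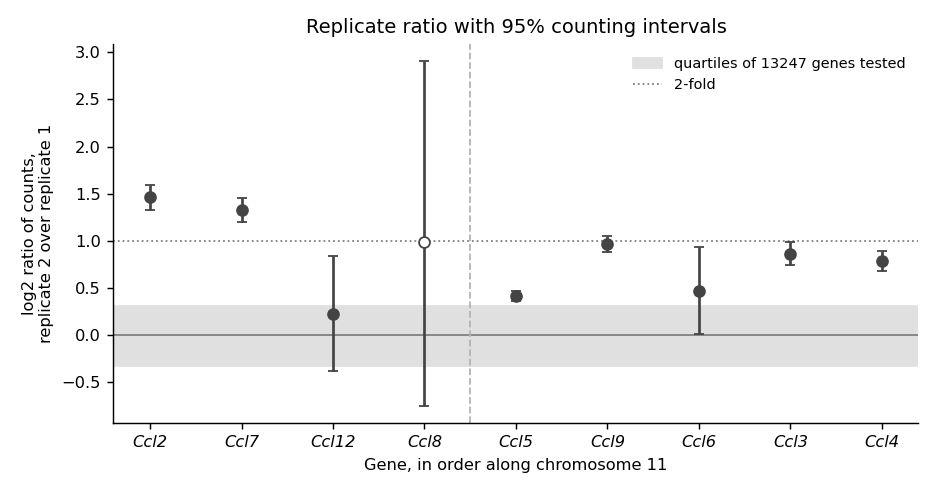
The log2 ratio of TMM-scaled counts, replicate 2 over replicate 1, for each member in gene order, with bars for the 95% exact binomial interval of the counts; the open point is Ccl8, which has under 10 counts. The grey band holds the middle of 13247 genes tested, between their quartiles, and the dotted line marks 2-fold; Ccl2 and Ccl7 lie above that line at 1.46 and 1.32, and Ccl12 within the band at 0.22.

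Chromatin RNA holds transcripts that are still being spliced, and 3 members have annotated isoforms of the class that keeps an intron. In Ccl5 the isoform Ccl5-202 took 67.1% and 72.5% of the gene's TPM (69.8 ± 3.83%, SD, n = 2). In Ccl2 the isoform Ccl2-202 took 53.0% and 49.6% (51.3 ± 2.39%). In Ccl6 the isoforms Ccl6-202 and Ccl6-203 together took 59.5% and 59.0% (59.3 ± 0.387%), from 20.4 and 22.3 counts on Ccl6-202 and 4 and 7 counts on Ccl6-203. For Ccl6 this share depended on the measure, at 32.6% of expected counts and 72.1% of TPM in the alignment-free program.

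How much intron these isoforms hold differs. Ccl2-202 contains the whole of intron 2 of Ccl2, chr11:82036601-82036925 (325 bases). Ccl5-202 reaches 428 bases into intron 2 of Ccl5, chr11:83526065-83529155 (3091 bases). Ccl6-202 holds 71 bases of intron 1, chr11:83589805-83592865 (3061 bases), and Ccl6-203 holds 284 bases of intron 2, chr11:83589415-83589756 (342 bases). For Ccl7, Ccl12, Ccl8, Ccl9, Ccl3 and Ccl4 no isoform of this class is annotated, so reads from their introns had no such isoform to be counted on. A share of 0 in those genes was therefore fixed by the annotation and is no measurement of splicing.

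Over the 9 members together, isoforms of this class took 44.5% and 41.5% of the TPM (43.0 ± 2.11%). Over all protein-coding genes they took 37.7 ± 0.252%. Without Ccl5 the cluster's share was 8.10 ± 1.22%, so the cluster's share rested on 1 gene.

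The isoforms of a gene did not move equally between the libraries. Ccl5-202 had 3476 and 4453 counts, a log2 ratio of 0.49, while the coding isoform Ccl5-201 had 1148 and 1160 counts, a ratio of 0.15. In the alignment-free table Ccl5-201 had the opposite sign, at −0.074 from 3482 and 3097 counts, and Ccl5-202 had 0.42. Both isoforms of Ccl2 were higher in replicate 2, with Ccl2-201 at 244 and 670 counts (1.59) and Ccl2-202 at 415 and 983 counts (1.38). In Ccl5, 57.8% of the 31-base stretches of Ccl5-201 and 66.8% of those of Ccl5-202 occur in no other isoform of the gene, whereas in Ccl2 it was 9.20% for Ccl2-201 and 33.3% for Ccl2-202. The coding isoform of Ccl2 therefore had little sequence of its own to be counted by.

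**Figure D4:**
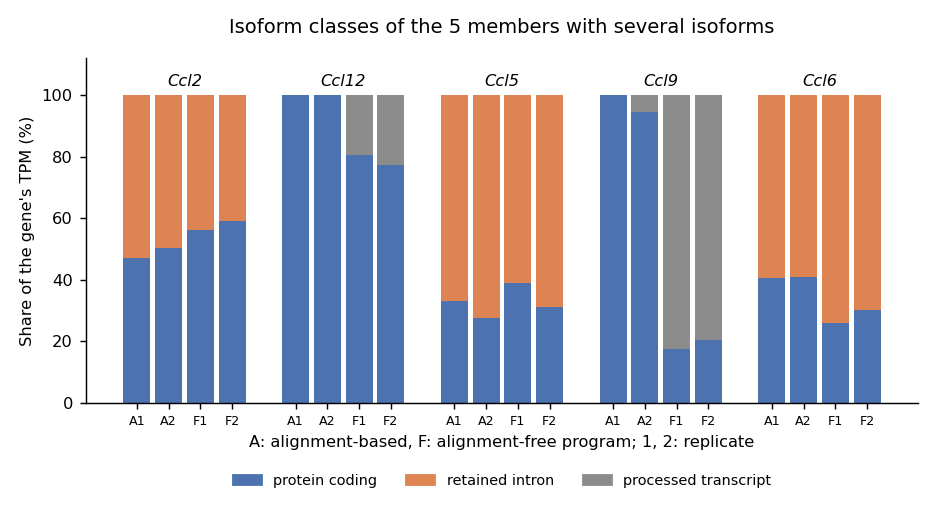
Share of each gene's TPM (percent, from 0) on coding, retained-intron and processed-transcript isoforms, for the 5 members with several isoforms, by program (A alignment-based, F alignment-free) and replicate (1, 2). Retained-intron isoforms take over 40% of Ccl2, Ccl5 and Ccl6 in every bar, while the processed transcript of Ccl9 takes 0% and 5.49% in the alignment-based and 82.7% and 79.7% in the alignment-free program.

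The second deposited table, made by the alignment-free program, gave all 9 members again. Each program scales TPM to its own total, so levels were compared within a program. The alignment-free levels were 58.4 and 145 TPM for Ccl2, 77.8 and 170.2 for Ccl7, 13.1 and 14.1 for Ccl12, and 1.17 and 1.81 for Ccl8. They were 983 and 1211 TPM for Ccl5, 174 and 264 for Ccl9, 7.92 and 9.51 for Ccl6, 169 and 247 for Ccl3, and 320 and 498 for Ccl4. Ccl5 and Ccl8 were again the highest and the lowest member, and Ccl4 was above Ccl3 and Ccl7 above Ccl2.

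The order changed for Ccl9. In the alignment-free table it lay above Ccl2, which reached 0.336-fold and 0.549-fold of it, and Ccl9 was 21.9-fold and 27.8-fold of Ccl6. There 143.6 and 210.3 TPM of Ccl9 were on Ccl9-202, a processed transcript of 398 bases, from 813 and 1090 estimated counts. The alignment-based program gave this isoform 0 and 10.9 counts. On Ccl9-201, the alignment-free levels were 30.0 and 53.7 TPM, from 2354 and 3795 counts. Of the stretches of Ccl9-202, 10.6% occur in no other isoform of the gene.

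Counts differed between the programs more for some members than for others. The alignment-free count was 3.64 and 3.25 times the alignment-based one for Ccl4, 2.98 and 2.36 times for Ccl3, and 2.42 and 2.28 times for Ccl5. For Ccl2, Ccl7 and Ccl9 it was 1.80 to 1.81 times in replicate 1 and 1.56 to 1.59 times in replicate 2. Over the 10348 protein-coding genes tested, the median was 1.78 and 1.73 times, with upper quartiles of 2.31 and 2.30. Ccl4, Ccl3 and Ccl12 (2.54 and 2.33 times) lay above the upper quartile in both libraries.

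**Figure D5:**
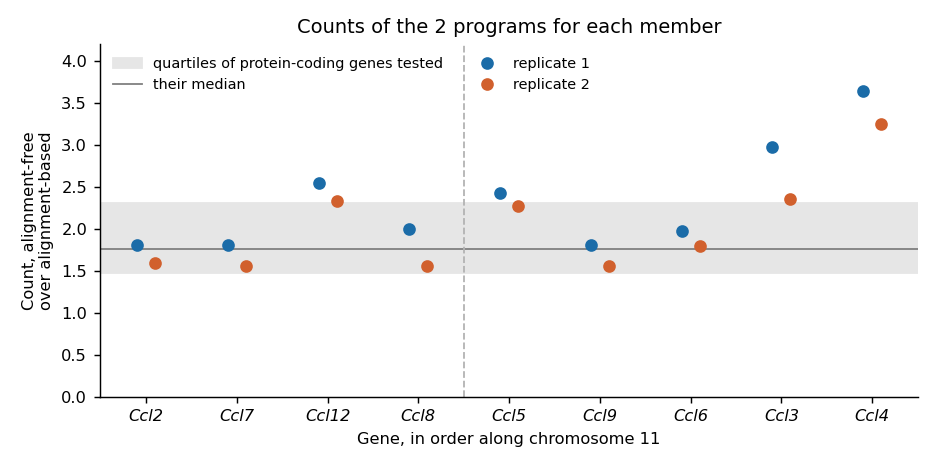
Count of the alignment-free program divided by that of the alignment-based program, for each member in gene order, in replicate 1 (blue) and replicate 2 (orange). The grey band spans the quartiles of 10348 protein-coding genes over both libraries and the line is the mean of the medians of the libraries; Ccl4 stands at 3.64 and 3.25, Ccl3 at 2.98 and 2.36 and Ccl12 at 2.54 and 2.33, above the band.

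Genes between and beside the members on the Ccl2 side had few or no counts in the alignment-based table and more in the alignment-free one. Ccl11, an eosinophil attractant between Ccl7 and Ccl12 at chr11:82057823-82062955, had 4 and 4 counts (0.28 and 0.31 TPM) in the first and 33 and 43 counts (1.35 and 1.95 TPM) in the second. Ccl1, a ligand of Ccr8 beyond Ccl8 at chr11:82176657-82305690, had 0 counts in either library and by either program, which allows up to 3 counts. The noncoding gene Gm31522 on the outer edge next to Ccl2 had 3 and 3 counts in the first and 20.7 and 29.0 in the second. Gm17268 overlaps Ccl2 on the opposite strand and had 0 counts, but its annotated transcript of 66 bases had an effective length of 0 in the alignment-based program. The alignment-free program gave it 2 and 13 counts (4.71 and 32.2 TPM). Ccl2-201 and Ccl2-202 shared none of the stretches compared above with other genes, so the annotated transcripts of Ccl2 and Gm17268 differ in sequence. No source used here says whether the counting took strand into account. Reads from the rest of this overlap therefore cannot be assigned to either gene.

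Genes at the edges of the Ccl5 side had higher levels. Heatr9, which follows the 3′ end of Ccl5 on the same strand, had 10.5 and 12.6 TPM and a log2 replicate ratio of 0.26. Whether these reads arise from Heatr9 itself was not tested. Wfdc17, beyond Ccl4, had 6.54 and 8.54 TPM and a ratio of 0.46. Within the side, Rpl9-ps1 had 3 and 3 counts, and E230016K23Rik, a noncoding gene that overlaps Ccl6 on the opposite strand, had 9 and 21 counts. By the alignment-free program E230016K23Rik had 132 and 169 counts, near the 144 and 165 of Ccl6. The stretches that Ccl6-201 shared with other genes were all in Slc17a4, and Ccl6-202 and Ccl6-203 shared none. No such stretch was therefore shared with E230016K23Rik. Reads from the rest of this overlap cannot be assigned to either gene, since the use of strand is not known.

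Other CC chemokines were largely absent. Of 10 listed genes outside the cluster, 1 reached 1 TPM in both libraries, Ccl25, a thymus and gut chemokine, at 12.6 and 13.4 TPM. Ccl22, a ligand of Ccr4, had 0.57 and 1.41 TPM, and Ccl27a, a skin chemokine, 0.62 and 0.09 TPM. At the lower end, 5 of the 10 had 0 counts in both libraries. Among 10 CXC chemokines, which mostly draw neutrophils and lymphocytes, 5 reached 1 TPM in both libraries, led by Cxcl10 at 203 and 215 TPM, Cxcl2 at 146 and 185 TPM and Cxcl16 at 67.3 and 85.6 TPM. The 5 CXC genes tested had a median replicate ratio of 0.34. Of these 5, 1 was past 2-fold, Cxcl1 at 1.96, against 4.09% of all genes tested.

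Receptor transcripts were described by the same measures. Of 14 CC and atypical receptors, 2 reached 1 TPM in both libraries and 4 had 0 counts. Ccrl2, an atypical receptor that binds chemerin, was highest at 25.7 and 36.2 TPM. Ccr1, a receptor of Ccl3, Ccl5, Ccl6 and Ccl9, had 1.20 and 3.22 TPM, and Ccr9, the receptor of Ccl25, had 1.42 and 0.98 TPM. Ccr2, the receptor of Ccl2, Ccl7 and Ccl12, was picked after its values were seen and had 0.32 and 0.32 TPM from 17.1 and 20.2 counts. In the alignment-free table it had 3.27 and 3.70 TPM from 269 and 270.5 counts, so its level depended on the program. Of the 6 receptors tested, 1 was past 2-fold, Ccr1 at 1.42, against 4.09% of all genes tested, and the median ratio was 0.41.

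Genes that carry the signal of these receptors were expressed. Of 14 listed, 13 reached 1 TPM in both libraries, led by Rgs1, which shortens G protein signals, at 204 and 328 TPM. Arrb2, an arrestin that uncouples receptors, had 321 and 185 TPM, and Gnb1, a G protein beta subunit, 74.5 and 85.1 TPM. The lowest was Rgs16 at 0.36 and 0.25 TPM. Of 13 tested, Rgs2 was past 2-fold higher in replicate 2 (1.08) and Grk2, a receptor kinase, past 2-fold lower (−1.10), and the median ratio was −0.0053. This list was thus centred near the median of all genes, with 6 of 13 ratios above 0. Over all genes tested, 4.09% were 2-fold or more higher in replicate 2, and the share 2-fold or more lower was not computed.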

How the data were processed

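Total RNA-seq of the chromatin fraction was deposited for 2 libraries, aligned to mm10 with annotation M21 per the deposited description files. Per the file headers, the authors' gene and isoform tables hold expected counts, TPM, the percent of a gene's TPM on each isoform, and a signal-type posterior SD of the count. A second deposited table holds estimated counts and TPM from a program that does not align reads. Their column names are those of RSEM and kallisto, while program, version and strand setting were not given in the sources used here. Annotation came from GENCODE M21. Spike-in, phiX and numbered entries (26345, holding 0.305% and 0.262% of the expected counts) were left out.

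Expected counts were rounded and scaled by TMM (edgeR 4.0.16), with DESeq2 1.42.0 size factors as an alternative, for genes that had 10 or more counts in both libraries. Intervals are 95% Clopper-Pearson or exact Poisson. The ratio step was tested on simulated data. With 1 group, no test between conditions was made. Coding sequences were compared with Biopython 1.88 in place of the proteins, for which no sequence was used here.

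The members, lists and comparisons were chosen with earlier results of these data known. Named were the 9 members, the genes between and beside them, the 3 highest and the lowest gene of each pathway list and the highest and lowest of each marker list by mean TPM, unless marked otherwise. A gene of the receptor list is not reported here and was left out of its counts.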

Additional observations from a re-analysis of the deposited data

How the results depend on the processing

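Over 29 results and 161 alternatives, 0 reversed direction. Levels, numbers of members and shares cannot fall below 0, so only the log2 differences and ratios could have reversed. The order of single genes and the ratios of single isoforms, some of which did turn, were outside this tally. With 2 libraries, leaving 1 out gave a Ccl2-side median of 32.1 to 80.1 TPM, a Ccl5-side median of 102 to 180.2 TPM, a log2 difference of the sides of 1.17 to 1.66 and a retained-intron share of 41.5% to 44.5%. TPM rescaled over protein-coding genes alone gave side medians of 204.9 (Ccl2 side) and 518 (Ccl5 side), a change of denominator that left ratios within a library as they were. In the alignment-free program the Ccl5-side median was 219 TPM and the log2 difference of the sides 2.00. There the median log2 replicate ratio was 0.58 for the members, 0.83 for the Ccl2 side and 0.49 for the Ccl5 side, and the retained-intron share 35.1%. With Ccl9-201 alone for Ccl9 in that program, an alternative chosen after seeing the data, the median was 208 TPM and the difference 1.94. The difference of the sides was 2.29 with coding isoforms alone and 2.47 with summed TPM. A 1.5-fold limit was passed by 5 members, against 11.8% of all genes tested. With no count minimum, which adds Ccl8, the median ratio of the Ccl2 side was 1.15. The retained-intron share was 37.6% of counts and, without Ccl5 (chosen after seeing the data), 8.10% of TPM. Where no construction is named, the cause was not tested. Of the single members' values, 16 of 55 levels, 8 of 32 ratios and 6 of 12 shares moved beyond their spread. For levels and shares the spread was the SD of the 2 libraries. Leaving 1 library out cannot shift a value beyond that SD, so those alternatives could not move. Every other share alternative did move. Rescaling over protein-coding genes moved the level of every member. A limit of 10 TPM in both libraries was passed by 6 members. No paired analysis was possible because the libraries form 1 group, and no groups share replicate numbers; the difference of the sides was taken within each library. Depth limits Ccl8 most, and intervals leave out library preparation.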

Other observations

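Some genes of the lists were close to 0 in the alignment-based table and held many counts in the alignment-free table. They were picked after their values were seen. Cd3d, a subunit of the T cell receptor complex, had 2 and 0 expected counts against 613 and 715 estimated counts. Ccl24, an eosinophil attractant, had 1 and 2 against 248 and 155, and Ccl28, a mucosal chemokine, 1 and 1 against 95.4 and 111.8. Among the members, taken as whole genes, no such gap was found, since the largest ratio of the counts of the programs was the 3.64 of Ccl4 in replicate 1.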
